A study of Drosophila melanogaster with 14 samples.

Results

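The 10 genes described here move sodium, potassium, chloride and calcium across the membranes of fly cells. They were found by FlyBase identifier, and all 10 were listed in each of the 3 expression tables, out of 15490 genes listed in any table. They are the alpha subunit of the sodium pump (Atpalpha), its beta subunits (nrv1, nrv2 and nrv3), the cation-chloride cotransporters kcc and Ncc69, the chloride channel family genes ClC-a and ClC-c, and the sodium-calcium exchangers Nckx30C and Calx. RNA was sequenced from 14 libraries of adult male Drosophila melanogaster aged 5 to 7 days, each from about 50 flies, with 2 libraries in each of 7 groups. The labels name brain as the tissue, while the series design speaks of heads.

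In the APP table, flies carrying the elav-Gal4 driver and UAS-APP (Elav-Gal4;UAS-APP;+) were set against the driver control (Elav-Gal4;+;+) and the UAS-APP control (w;UAS-APP;+). Gal4 made under elav, a gene of neurons, switches on transgenes behind a UAS sequence, and APP is the amyloid precursor protein. In the Shal495 table, Shal495 flies (w;+;Shal495, with the genotype of the second library written Shal496) were set against w1118 flies. Shal encodes a voltage-gated potassium channel that carries a fast, transient current. In the TrpA1 table, flies with the driver and UAS-TrpA1 (Elav-Gal4;+;UAS-TrpA1) were set against the UAS-TrpA1 control (w;+;UAS-TrpA1), and no driver control stood in that table. TrpA1 is a cation channel opened by warmth and irritants, and the labels state that flies were kept at room temperature. The stated aim was to look for pathways altered by these genotypes and by the neuronal hyperexcitability they induce. Nothing in the labels shows whether replicate libraries derive from separate crosses, so p-values measure the spread between these libraries, which may be technical.

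The sodium pump spends ATP to export sodium and import potassium, and so restores the gradients that action potentials and synaptic currents run down. A catalytic alpha subunit needs a beta subunit to mature and reach the membrane. Potassium-chloride cotransport lowers chloride inside neurons and sodium-potassium-chloride cotransport raises it, and the balance sets how GABA-gated chloride channels act on a neuron. Sodium-calcium exchangers use the sodium gradient that the pump maintains to remove calcium after activity, and in fly photoreceptors they clear the calcium that enters with light.

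All 10 genes had the same position in the 3 tables as in the Ensembl annotation of BDGP6, the build named in the submitters' processing notes. Atpalpha spans chromosome 3R from 20948714 to 20976239 on the plus strand, and Calx follows it on the same strand at 20978183 to 21015613, with 1943 bp between them. On chromosome 2L, nrv1 (6778555 to 6786861) and nrv2 (6789770 to 6798862) also lie side by side on the minus strand, 2908 bp apart, while nrv3 (21380000 to 21393319, plus) and Nckx30C (9711512 to 9746495, minus) stand alone. kcc lies on 2R (23907654 to 23925066, plus), Ncc69 (12368646 to 12391444, minus) and ClC-c (16090454 to 16096151, plus) on 3L, and ClC-a on 3R (11797244 to 11813207, minus). The annotation gives the genes 2 to 11 transcripts, from nrv1 and Atpalpha, and the tables sum over transcripts. Strand marking is not stated in the labels, so antisense fragments could be counted for either gene: 3.19% of kcc exon bases overlap asRNA:CR44806 and 8.18% of ClC-c exon bases overlap CG13074, both on the opposite strand.

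Expression is given as FPKM, fragments scaled by exon length and library total, and so compares genes per length. Libraries held 17162942 to 19911318 fragments, and every value of the 10 genes was a whole number of them. The thinnest value, Nckx30C in the first driver control library, rested on 652 fragments (3.49 FPKM, exact 95% Poisson interval 3.23 to 3.77), and the deepest, Atpalpha in the first elav-Gal4 UAS-APP library, on 96435 (772 FPKM, 767 to 777). These intervals cover counting error only. Markers of neurons, glia and photoreceptors were above 0 in every library. Digestive enzyme markers of the gut, which a dissected brain should lack, were also present in every group, although betaTry was at 0 in both w1118 libraries. In such bulk RNA, fewer cells of a type and less RNA per cell cannot be told apart. The 3 tables were deposited separately, so differences were tested within a table.

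In flies with elav-Gal4 and UAS-APP, 9 of the 10 transporter transcripts were higher than in the driver control and 1, nrv1, was lower. The largest FPKM ratios were those of Nckx30C (17.1-fold), nrv3 (8.73-fold), kcc (5.05-fold), Atpalpha (4.42-fold) and nrv2 (4.31-fold). Of all 9866 genes tested, 84.0% passed the same threshold, 56.5% higher and 27.5% lower (limma on log2(FPKM + 1), Benjamini-Hochberg adjusted p under 0.05). The median gene was itself higher, by 0.43 on the log2 scale, so each log2 change below is given as deposited, which is the change its SE and adjusted p belong to, and again relative to the median gene of its comparison, with no p of its own. The median relative change of the 10 was 1.32. With each library centred on its median gene, the same 9 were higher and nrv1 lower, beside 36.0% higher and 45.8% lower among all genes. Libraries did not overlap for any of the 10, as held for 93.2% of all genes, 61.5% higher and 31.8% lower.

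Against the UAS-APP control the count was the same, 9 higher and nrv1 lower, where 76.7% of all genes passed, 46.1% higher and 30.7% lower. The median gene was higher by 0.17, and the median relative change of the 10 was 1.13. With libraries centred, 8 were higher and nrv1 lower, beside 35.2% higher and 42.0% lower among all genes. Libraries again did not overlap for any of the 10, as held for 88.4% of all genes, 51.9% higher and 36.6% lower. Both comparisons use the same elav-Gal4 UAS-APP libraries and are not independent.

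**Figure D1:**
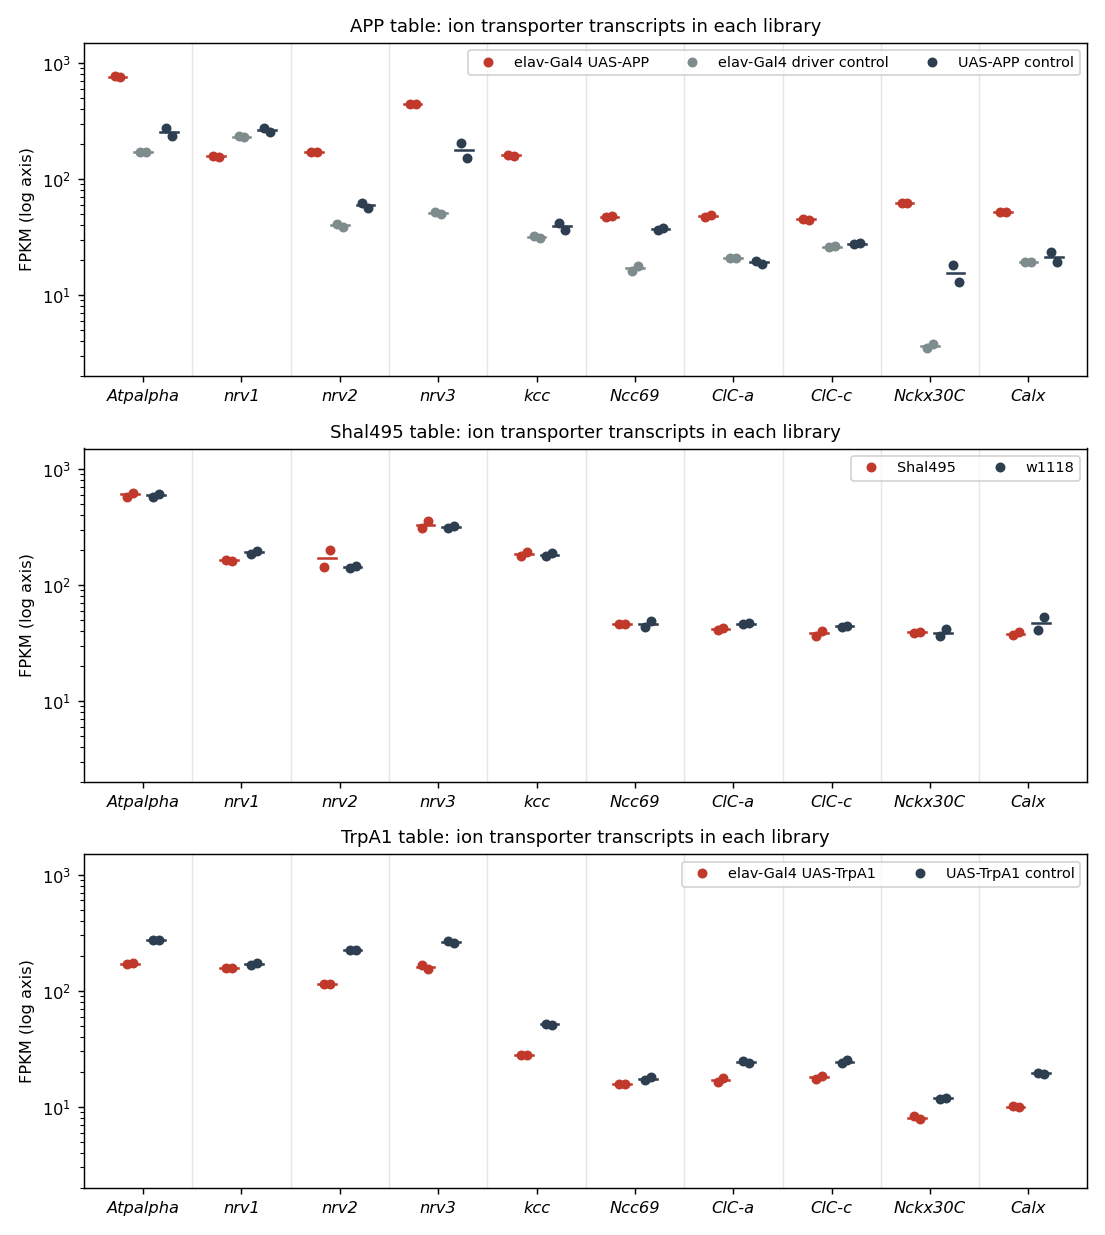
FPKM (log axis) of the 10 ion transporter genes in each library, 1 panel per table, points for the 2 libraries of a group and a line at their mean. In the APP table the elav-Gal4 UAS-APP points lie above both controls for every gene except nrv1, and in the TrpA1 table the elav-Gal4 UAS-TrpA1 points lie below the control for every gene.

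Atpalpha, the catalytic subunit of the pump, had 772 and 754 FPKM in elav-Gal4 UAS-APP, against 172 and 173 FPKM in the driver control and 277 and 236 FPKM in the UAS-APP control. Both elav-Gal4 UAS-APP libraries lay far above all 4 control libraries. The log2 change was 2.14 ± 0.08 (SE) over the driver control (adjusted p = 3.88e-07), which is 1.71 relative to the median gene. Over the UAS-APP control it was 1.58 ± 0.08 (adjusted p = 3.79e-06), or 1.41 relative to the median gene.

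The beta subunits split. nrv3, a beta subunit found mainly in the nervous system, had 446 and 444 FPKM in elav-Gal4 UAS-APP, against 51.7 and 50.3 FPKM in the driver control and 205 and 153 FPKM in the UAS-APP control. It was the beta subunit with the greatest change over the driver control, with a log2 change of 3.10 ± 0.12 (adjusted p = 4.53e-07), or 2.67 relative to the median gene. Over the UAS-APP control it was 1.33 ± 0.12 (adjusted p = 5.19e-05), or 1.16 relative.

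nrv2, a beta subunit of glia and epithelia that also takes part in septate junctions, had 171 and 173 FPKM in elav-Gal4 UAS-APP, against 41.2 and 38.7 FPKM in the driver control and 62.9 and 55.9 FPKM in the UAS-APP control. It followed Atpalpha closely, with log2 changes of 2.08 ± 0.07 over the driver control (adjusted p = 2.65e-07) and 1.52 ± 0.07 over the UAS-APP control (adjusted p = 2.79e-06), or 1.65 and 1.35 relative to the median gene.

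nrv1, its chromosomal neighbour and a beta subunit known mainly from muscle, went the other way, with 159 and 155 FPKM in elav-Gal4 UAS-APP, against 235 and 230 FPKM in the driver control and 274 and 257 FPKM in the UAS-APP control. Both elav-Gal4 UAS-APP libraries were the lowest of the 6. The log2 change was -0.57 ± 0.06 over the driver control (adjusted p = 6.34e-05), or -0.99 relative to the median gene, where quantile normalization gave -0.09 and no call (adjusted p = 0.276). Over the UAS-APP control it was -0.76 ± 0.06 (adjusted p = 2.13e-05), or -0.93 relative.

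The make-up of the beta pool also differed among the groups. nrv1 supplied 20.4% and 20.1% of the summed beta subunit FPKM in elav-Gal4 UAS-APP, against 71.7% and 72.1% in the driver control and 50.6% and 55.2% in the UAS-APP control. nrv3 supplied 57.5% in both elav-Gal4 UAS-APP libraries, against 15.7% and 15.8% in the driver control and 37.8% and 32.8% in the UAS-APP control. The leading beta transcript was nrv3 in elav-Gal4 UAS-APP and nrv1 in both controls.

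The summed beta FPKM per Atpalpha FPKM was 1.00 and 1.02 in elav-Gal4 UAS-APP, against 1.91 and 1.85 in the driver control and 1.96 and 1.98 in the UAS-APP control. The 4 control libraries were all above the elav-Gal4 UAS-APP libraries. These ratios are given as values per library, and their differences were not tested.

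**Figure D2:**
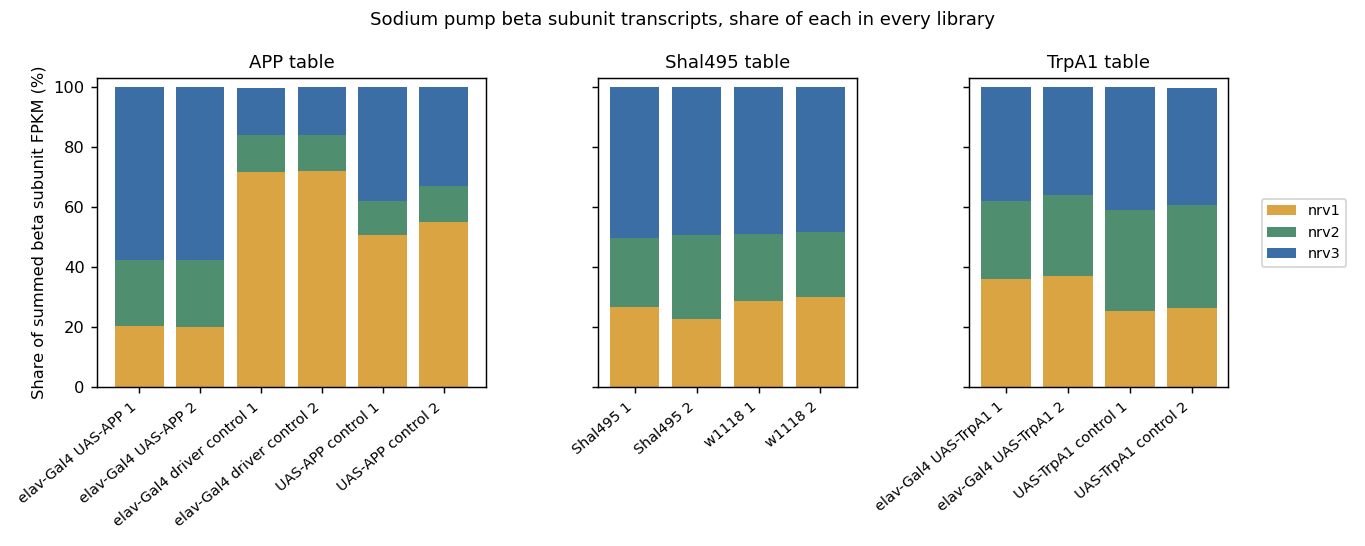
Share (%) of nrv1, nrv2 and nrv3 in their summed FPKM, 1 stacked bar per library. nrv1 makes up 20.1% to 20.4% of the bar in elav-Gal4 UAS-APP, against 71.7% to 72.1% in the driver control, and 22.6% to 26.7% in Shal495, against 28.8% to 29.9% in w1118.

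kcc, the potassium-chloride cotransporter that extrudes chloride and whose loss makes flies prone to seizures, had 162 and 159 FPKM in elav-Gal4 UAS-APP, against 32.6 and 31.1 FPKM in the driver control and 41.9 and 36.7 FPKM in the UAS-APP control. It had the greatest log2 change of the 10 over the UAS-APP control, 2.01 ± 0.07 (adjusted p = 9.84e-07), within the SE of that of Nckx30C, and 2.30 ± 0.07 over the driver control (adjusted p = 2.05e-07). Relative to the median gene these were 1.84 and 1.87.

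Ncc69, a sodium-potassium-chloride cotransporter that imports chloride, had 46.8 and 47.9 FPKM in elav-Gal4 UAS-APP, against 16.3 and 18.0 FPKM in the driver control and 36.6 and 37.6 FPKM in the UAS-APP control. The UAS-APP control was much nearer to elav-Gal4 UAS-APP than the driver control was. The log2 change was 1.42 ± 0.07 over the driver control (adjusted p = 1.02e-06), or 0.99 relative to the median gene. Over the UAS-APP control it was 0.34 ± 0.07 (adjusted p = 0.0026), or 0.17 relative, and it did not pass with each library centred on its median gene (0.09, adjusted p = 0.269).

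kcc FPKM per Ncc69 FPKM was 3.47 and 3.33 in elav-Gal4 UAS-APP, against 2.00 and 1.73 in the driver control and 1.15 and 0.974 in the UAS-APP control. Both elav-Gal4 UAS-APP libraries had a higher ratio than all 4 control libraries.

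ClC-a, a chloride channel of the plasma membrane known in epithelia and glia, had 47.1 and 48.7 FPKM in elav-Gal4 UAS-APP, against 20.8 and 21.0 FPKM in the driver control and 19.7 and 18.6 FPKM in the UAS-APP control. ClC-c, of the branch of the family that works in endosomes in mammals, had 45.8 and 44.5 FPKM in elav-Gal4 UAS-APP, against 25.8 and 26.4 FPKM in the driver control and 27.4 and 27.9 FPKM in the UAS-APP control. For both genes the 2 controls were close to each other. The log2 changes of ClC-a were 1.16 ± 0.06 over the driver control (adjusted p = 1.78e-06) and 1.28 ± 0.06 over the UAS-APP control (adjusted p = 3.00e-06), or 0.73 and 1.11 relative to the median gene. ClC-c had the smallest positive change over the driver control, 0.77 ± 0.06 (adjusted p = 1.05e-05), and 0.69 ± 0.06 over the UAS-APP control (adjusted p = 3.10e-05), or 0.34 and 0.52 relative. With libraries centred on their median gene, ClC-c was at 0.21 over the driver control (adjusted p = 0.0155) and 0.43 over the UAS-APP control (adjusted p = 0.00051).

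Nckx30C, a potassium-dependent sodium-calcium exchanger of photoreceptors and brain, had 62.8 and 61.8 FPKM in elav-Gal4 UAS-APP, against 3.49 and 3.80 FPKM in the driver control and 18.3 and 12.9 FPKM in the UAS-APP control. No other of the 10 genes was so low in the driver control. The log2 change was 3.77 ± 0.14 over the driver control (adjusted p = 3.69e-07) and 1.95 ± 0.14 over the UAS-APP control (adjusted p = 1.58e-05), or 3.34 and 1.78 relative to the median gene.

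Calx, the exchanger that needs no potassium and that protects photoreceptors from calcium overload, had 51.6 and 52.0 FPKM in elav-Gal4 UAS-APP, against 19.1 and 19.2 FPKM in the driver control and 23.4 and 19.2 FPKM in the UAS-APP control. The log2 change of Calx was 1.39 ± 0.09 over the driver control (adjusted p = 5.12e-06) and 1.25 ± 0.09 over the UAS-APP control (adjusted p = 1.59e-05), or 0.96 and 1.08 relative to the median gene. Both were below those of Nckx30C, a difference that was not tested. Nckx30C FPKM per Calx FPKM was 1.22 and 1.19 in elav-Gal4 UAS-APP, against 0.182 and 0.198 in the driver control and 0.781 and 0.670 in the UAS-APP control, a ratio added after the values were seen. In the authors' deposited table of GO terms for APP, Calx was the only one of the 10, listed under transmembrane transport with 51 genes, calcium ion binding with 38, integral component of membrane with 388 and neuromuscular process controlling posture with 4.

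Markers of some cell types also differed between these groups. The summed FPKM of 8 neuron markers was 913 to 927 in elav-Gal4 UAS-APP, 59.0 to 59.3 in the driver control and 232 to 311 in the UAS-APP control, and all 8 were higher in both comparisons. The 8 gut markers summed to 689 to 691 in elav-Gal4 UAS-APP, 46147 to 47170 in the driver control and 20880 to 22480 in the UAS-APP control, and all 8 were lower in both comparisons. No neuron or gut marker was at 0 in this table.

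The 7 glia markers summed to 1341 to 1343 FPKM for elav-Gal4 UAS-APP. The sums were 712 to 718 for the driver control and 815 to 843 for the UAS-APP control. Gs2 made up most of each, at means of 879, 484 and 580.5 FPKM in that order. As deposited, 6 were higher over the driver control and 7 over the UAS-APP control, beside 56.5% and 46.1% of all genes. Their median relative log2 changes were 2.01 and 0.95. With libraries centred, Eaat1 was lower over the driver control (-0.475, adjusted p = 0.000181). It did not pass over the UAS-APP control (0.109, adjusted p = 0.118). The other glia markers stayed higher in both comparisons. The 8 photoreceptor markers summed to 29063 FPKM for elav-Gal4 UAS-APP. The sums were 2812 to 2866 for the driver control and 20501 to 24754 for the UAS-APP control. As deposited, 8 and 6 were higher, beside 56.5% and 46.1% of all genes, with median relative log2 changes of 2.8 and 0.35. With libraries centred all 8 stayed higher over the driver control. Over the UAS-APP control only ninaC, trp, norpA and inaD were then higher, and trpl was lower (-0.517, adjusted p = 0.00307). ninaE, Arr1 and Arr2 then did not pass (adjusted p = 0.217, 0.0575 and 0.113). The 6 fat body markers summed to 606 to 607 FPKM in elav-Gal4 UAS-APP, 1256 to 1259 in the driver control and 933 to 1198 in the UAS-APP control. Their genes did not move one way: over the driver control fit and to were lower, Apoltp and FASN1 higher, and apolpp and Lsp2 did not pass, while over the UAS-APP control 4 were lower and Apoltp was higher. With libraries centred, apolpp, Lsp2, to, fit and FASN1 were lower and Apoltp was higher in both comparisons. Most of the difference in this sum came from to, which averaged 109 FPKM in elav-Gal4 UAS-APP, 793 FPKM in the driver control and 478 FPKM in the UAS-APP control. The 7 muscle markers summed to 1016 to 1018 FPKM in elav-Gal4 UAS-APP, 1057 to 1060 in the driver control and 701 to 776 in the UAS-APP control, with 3 higher and 2 lower over the driver control and 5 higher and 1 lower over the UAS-APP control. The 5 Malpighian tubule markers, with Uro at 0 in 4 of these 6 libraries, summed to 30.0 to 30.3 FPKM in elav-Gal4 UAS-APP, 55.8 to 56.6 in the driver control and 48.2 to 53.4 in the UAS-APP control. Of their 2 tested genes, Drip was lower and Lkr higher in both comparisons. The part of these marker differences in the transporter results was not tested.

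The 2 controls of the APP table also differed from each other. In the driver control 7 of the 10 transcripts were lower than in the UAS-APP control, none was higher and 3 did not pass (ClC-a, ClC-c and Calx), where 66.3% of all genes passed, 16.2% higher and 50.2% lower. The median gene was lower by 0.27, and the median relative change of the 10 was -0.16. Libraries did not overlap for 9 of the 10, as held for 84.1% of all genes, 21.3% higher and 62.8% lower. The 3 greatest log2 differences were those of Nckx30C (-1.82 ± 0.14, adjusted p = 6.36e-05), nrv3 (-1.77 ± 0.12, adjusted p = 3.98e-05) and Ncc69 (-1.07 ± 0.07, adjusted p = 2.73e-05), or -1.55, -1.50 and -0.80 relative to the median gene. Atpalpha and nrv2 were at -0.56 each, or -0.29 relative.

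With every library centred on its median gene, 2 were higher (ClC-a, 0.43, and ClC-c, 0.23) and 5 lower, beside 29.7% higher and 24.0% lower among all genes, so the direction of the smaller differences depended on the scaling. nrv1 (adjusted p = 0.0249) did not pass without either driver control library (adjusted p = 0.109 and 0.160) or without either elav-Gal4 UAS-APP library (0.0722 for each). kcc (adjusted p = 0.0117) did not pass without the second driver control library (adjusted p = 0.0864). ClC-a passed as higher without the first UAS-APP control library (adjusted p = 0.0247), and Calx as lower without the second (adjusted p = 0.00201). Cell type markers differed here too, by the sums given above. Neuron markers were lower (8 of 8, median relative log2 change -1.68), as were photoreceptor markers (8 of 8, -2.70) and 5 of 7 glia markers (1 higher, -0.56). Of 6 fat body markers, 4 were lower and 1 higher, with a median relative log2 change of -0.01, although their sum was higher in the driver control. With libraries centred, Lsp2 and fit were lower (adjusted p = 0.00714 and 0.0212), and to and Apoltp were higher (adjusted p = 0.00533 and 0.0354). Gut markers (8 of 8, 1.30) and muscle markers (6 of 7, 0.65) were higher. Their part in the result was not tested.

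**Figure D3:**
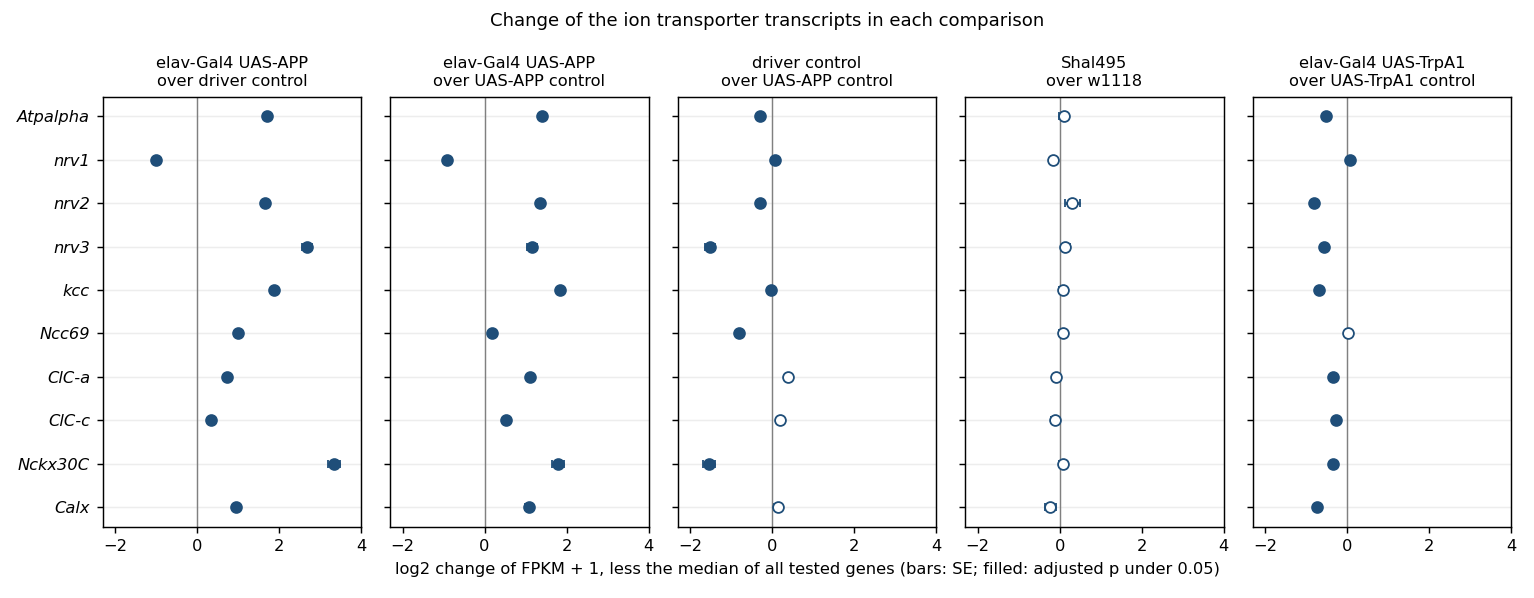
Log2 change of the 10 genes in each comparison, less the median of all tested genes, with SE bars, and filled points where the deposited values gave an adjusted p under 0.05. Over the driver control the points run from -0.99 for nrv1 to 3.34 for Nckx30C, whereas all points of Shal495 over w1118 lie near 0 and are open. A filled point near 0 (such as nrv1 in the controls and in the TrpA1 comparison) passed on the deposited scale, on which the median gene itself had moved.

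A wider set of 36 genes of the same transport systems, in 6 lists, was looked at beside the 10 genes, and 24 of them passed the filter on low values in the APP table. Where 2 statistics of such a gene stand together, the first is over the driver control and the second over the UAS-APP control. Over the driver control 21 of these 24 were higher and 3 lower in elav-Gal4 UAS-APP, beside 56.5% and 27.5% of all genes, with a median relative log2 change of 0.34. With libraries centred on their median gene 14 were higher and 5 lower, beside 36.0% and 45.8%, and the calls of NKCC and Nha2 turned from higher to lower. Over the UAS-APP control 18 were higher and 3 lower, beside 46.1% and 30.7% of all genes, with a median of 0.60, and 15 were higher and 4 lower with libraries centred, beside 35.2% and 42.0%.

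Both tested exchangers beside Nckx30C and Calx were higher in elav-Gal4 UAS-APP. CG1090, of the potassium-dependent exchanger family, averaged 51.8 ± 0.23 FPKM in elav-Gal4 UAS-APP, 4.03 ± 0.01 FPKM in the driver control and 14.8 ± 4.48 FPKM in the UAS-APP control (SD, n = 2 each). zydeco (zyd), an exchanger of glia whose loss causes seizures, averaged 27.6 ± 0.20 FPKM in elav-Gal4 UAS-APP, 3.53 ± 0.20 FPKM in the driver control and 9.68 ± 2.15 FPKM in the UAS-APP control. Adjusted p-values were 1.19e-06 and 5.66e-05 for CG1090, and 1.23e-06 and 4.90e-05 for zyd.

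All 3 calcium pumps were higher in both comparisons, beside 56.5% and 46.1% of all genes. Relative to the median gene, log2 changes were 1.68 and 0.78 for SPoCk, 0.31 and 1.00 for SERCA, and 0.59 and 0.81 for PMCA. With libraries centred all 3 stayed higher, SERCA by 0.18 over the driver control (adjusted p = 0.0386). SPoCk, the pump of the secretory pathway, averaged 73.9 ± 0.17 FPKM in elav-Gal4 UAS-APP, 16.4 ± 0.22 FPKM in the driver control and 37.9 ± 5.04 FPKM in the UAS-APP control (adjusted p = 5.98e-07 and 5.42e-05). SERCA, which fills the endoplasmic reticulum, averaged 298 ± 2.24 FPKM in elav-Gal4 UAS-APP, 178 ± 0.74 FPKM in the driver control and 132 ± 4.30 FPKM in the UAS-APP control (adjusted p = 1.01e-05 and 2.66e-06). PMCA, the plasma membrane pump, averaged 95.1 ± 0.85 FPKM in elav-Gal4 UAS-APP, 46.5 ± 0.83 FPKM in the driver control and 47.9 ± 5.20 FPKM in the UAS-APP control (adjusted p = 1.20e-05 and 2.46e-05).

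Of 6 other tested chloride channel genes, 6 were higher over the driver control and 5 over the UAS-APP control. Among all genes 56.5% and 46.1% were higher. wwk, of the anoctamin family, averaged 20.7 ± 0.79 FPKM in elav-Gal4 UAS-APP, 1.30 ± 0.10 FPKM in the driver control and 4.66 ± 1.52 FPKM in the UAS-APP control (adjusted p = 1.58e-06 and 3.53e-05). Its log2 changes, 3.24 and 1.97, lay above those of ClC-a and ClC-c, differences that were not tested. Among the others, subdued had log2 changes of 1.28 ± 0.10 (adjusted p = 1.06e-05) and 0.86 ± 0.10 (adjusted p = 0.000138), Best1 0.61 ± 0.07 (adjusted p = 9.72e-05) and 0.72 ± 0.07 (adjusted p = 5.65e-05), and Best2 0.75 ± 0.06 (adjusted p = 1.46e-05) and 0.19 ± 0.06 (adjusted p = 0.024). Relative to the median gene these were 0.85 and 0.69 for subdued, 0.18 and 0.55 for Best1, and 0.32 and 0.02 for Best2. With libraries centred, Best2 did not pass over the UAS-APP control (-0.07, adjusted p = 0.310). Over the driver control, Best1 (0.05, adjusted p = 0.579), ClC-b (-0.07, adjusted p = 0.417) and Axs (0.23, adjusted p = 0.104) then did not pass, while Best2, subdued and wwk stayed higher.

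Of 6 further cotransporters and their kinase partners, 5 were higher and 1 lower over the driver control, beside 56.5% and 27.5% of all genes. Over the UAS-APP control 3 were higher and 1 lower, beside 46.1% and 30.7%. Their median relative log2 changes were 0.16 and -0.03. Wnk, the kinase that senses chloride and acts through fray on cotransporters, had log2 changes of 1.05 ± 0.11 (adjusted p = 5.71e-05) and 0.74 ± 0.11 (adjusted p = 0.000524), or 0.63 and 0.57 relative to the median gene. fray had 0.74 ± 0.08 (adjusted p = 6.37e-05) and 0.37 ± 0.08 (adjusted p = 0.0033), or 0.31 and 0.20 relative, and with libraries centred it did not pass over the UAS-APP control (adjusted p = 0.154). Mo25, a scaffold that activates such kinases, had 0.57 ± 0.06 (adjusted p = 6.15e-05) and 0.21 ± 0.06 (adjusted p = 0.013), or 0.14 and 0.04 relative. With libraries centred Mo25 passed in neither comparison, at 0.01 (adjusted p = 0.881) and -0.04 (adjusted p = 0.557). On the deposited scale CG12773, of the cotransporter family, was the lower one, at -0.42 ± 0.07 (adjusted p = 0.000956) and -0.21 ± 0.07 (adjusted p = 0.0304), or -0.85 and -0.38 relative. With libraries centred, NKCC was also lower over the driver control (-0.212, adjusted p = 0.0366). CG10413 was then lower over the UAS-APP control (-0.234, adjusted p = 0.0135).

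Of 6 sodium-proton and bicarbonate exchangers, 4 were higher and 2 lower in both comparisons. The shares of all genes were 56.5% higher and 27.5% lower over the driver control, and 46.1% and 30.7% over the UAS-APP control. Their median relative log2 changes were 0.22 and 0.67. With libraries centred, Nha2 turned lower over the driver control (-0.252, adjusted p = 0.00781), and the other calls held. Nha1, a cation-proton antiporter of epithelia, averaged 4.86 ± 0.35 FPKM in elav-Gal4 UAS-APP, 43.9 ± 1.34 FPKM in the driver control and 32.2 ± 2.70 FPKM in the UAS-APP control, the largest decrease among the 24 tested (adjusted p = 1.29e-07 and 5.88e-07). Nhe1 was the other gene lower in both comparisons, at 17.0 ± 0.73 FPKM in elav-Gal4 UAS-APP, 21.8 ± 1.53 FPKM in the driver control and 21.6 ± 0.57 FPKM in the UAS-APP control (adjusted p = 0.004 and 0.00529). Nhe3 averaged 65.7 ± 1.17 FPKM in elav-Gal4 UAS-APP, 15.5 ± 0.71 FPKM in the driver control and 33.0 ± 1.30 FPKM in the UAS-APP control (adjusted p = 1.97e-07 and 1.04e-05). Ndae1, a sodium-driven bicarbonate exchanger, had log2 changes of 1.23 ± 0.07 (adjusted p = 3.12e-06) and 1.07 ± 0.07 (adjusted p = 1.22e-05), or 0.80 and 0.90 relative to the median gene. Among other pump subunits only CG33310, of the beta subunit family, passed the filter, at means of 1.51 FPKM in elav-Gal4 UAS-APP, 0.0193 FPKM in the driver control and 0.192 FPKM in the UAS-APP control (adjusted p = 9.21e-05 and 0.000356).

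Between the controls, 4 of the 24 were higher and 13 lower in the driver control, shares near the 16.2% higher and 50.2% lower of all genes. With libraries centred 7 were higher and 7 lower, beside 29.7% and 24.0%. The lowest adjusted p was that of Nhe3, which was lower (log2 change -1.04 ± 0.06, adjusted p = 2.52e-05, or -0.77 relative to the median gene) against the direction of Nha2 and Nha1 in its list. SPoCk (-1.16 ± 0.09, adjusted p = 6.11e-05), CG1090 (-1.62 ± 0.17, adjusted p = 0.000199), zyd (-1.22 ± 0.13, adjusted p = 0.000244) and wwk (-1.27 ± 0.17, adjusted p = 0.000623) were also lower, and stood at -0.89, -1.35, -0.95 and -1.0 relative to the median gene. Best2 (-0.56 ± 0.06, adjusted p = 0.000229) and CG10413 (-0.58 ± 0.07, adjusted p = 0.000426) were lower by less, at -0.29 and -0.31 relative. Mo25 (adjusted p = 0.00163), fray (adjusted p = 0.00487) and subdued (adjusted p = 0.00713) were lower by 0.36 to 0.42 on the log2 scale. With libraries centred, Mo25, fray and subdued did not pass (adjusted p = 0.508, 0.503 and 0.303).

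The 4 higher in the driver control were Nha2 (0.56 ± 0.07, adjusted p = 0.000355), SERCA (0.43 ± 0.06, adjusted p = 0.000488), Nha1 (0.44 ± 0.08, adjusted p = 0.00301) and CG12773 (0.21 ± 0.07, adjusted p = 0.0336). Relative to the median gene they were at 0.83, 0.70, 0.71 and 0.48. CG12773 was the one of its list to be higher, where the other 5 were lower.

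In Shal495 flies none of the 10 transporter transcripts differed from w1118 past the threshold, where 2.37% of all 9628 genes tested did. None had an unadjusted p under 0.05 either, and limma-voom on the recovered fragments also called none. Their median log2 change was 0.01, beside -0.07 for all genes. The groups did not overlap for 4 of the 10 (nrv1, ClC-a, ClC-c and Calx, all lower in Shal495), as held for 52.7% of all genes, 34.5% lower.

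Atpalpha had 578 and 626 FPKM in Shal495, against 572 and 611 FPKM in w1118. The 2 groups overlapped, and the 95% interval of the difference ran from 0.835-fold to 1.24-fold. nrv1 had 165 and 162 FPKM in Shal495, against 184 and 198 FPKM in w1118, with the lowest p of the 10 (log2 change -0.22 ± 0.09, unadjusted p = 0.0503, adjusted p = 0.256).

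nrv2 had 143 and 201 FPKM in Shal495, against 141 and 145 FPKM in w1118, so 1 Shal495 library was high and the other lay within the w1118 range. nrv3 had 309 and 354 FPKM in Shal495, against 312 and 320 FPKM in w1118. The intervals ran from 0.860-fold to 1.63-fold for nrv2 and from 0.861-fold to 1.27-fold for nrv3, and beta FPKM per Atpalpha FPKM was 1.07 and 1.14 in Shal495, against 1.12 and 1.09 in w1118.

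kcc had 176 and 194 FPKM in Shal495, against 178 and 187 FPKM in w1118. Ncc69 had 45.9 FPKM in both Shal495 libraries, against 43.1 and 48.4 FPKM in w1118. The groups overlapped for both, with intervals of 0.854-fold to 1.20-fold for kcc and 0.849-fold to 1.19-fold for Ncc69, and kcc per Ncc69 was 3.84 and 4.22 in Shal495, against 4.14 and 3.86 in w1118.

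ClC-a had 40.7 and 43.0 FPKM in Shal495, against 45.7 and 47.3 FPKM in w1118. ClC-c had 36.4 and 40.4 FPKM in Shal495, against 43.5 and 44.3 FPKM in w1118. Both were lower without overlap, by less than the test could call (adjusted p = 0.399 for ClC-a and 0.349 for ClC-c), with intervals of 0.777-fold to 1.05-fold and 0.744-fold to 1.03-fold.

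Nckx30C had 38.7 and 39.4 FPKM in Shal495, against 36.0 and 41.5 FPKM in w1118. Calx had 36.7 and 39.5 FPKM in Shal495, against 41.1 and 53.4 FPKM in w1118. Calx had the widest gap in means of the 4 that did not overlap (log2 change -0.29 ± 0.14, adjusted p = 0.360, interval 0.628-fold to 1.06-fold), and 1 of its w1118 libraries lay well above the other.

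Of 23 tested genes of the wider lists, 1 was higher and none lower in Shal495. It was CG1090, at 30.3 ± 3.28 FPKM in Shal495 against 9.52 ± 1.98 FPKM in w1118 (SD, n = 2 each, adjusted p = 0.0286). It no longer passed without the filter on low values, or without either Shal495 library, which left 0 of the wider lists past the threshold. subdued, an anoctamin, came next, at 15.3 ± 1.1 FPKM in Shal495 against 10.9 ± 0.29 FPKM in w1118 (adjusted p = 0.110). Neuron markers summed to 681 to 691 FPKM in Shal495 and 674 to 698 in w1118, and glia markers to 1369 to 1441 in Shal495 and 1231 to 1446 in w1118. Photoreceptor markers summed to 33730 to 39079 FPKM in Shal495 and 34571 to 38230 in w1118, and gut markers to 787 to 1116 in Shal495 and 826 to 1170 in w1118. No neuron, glia or photoreceptor marker passed, and 1 of 8 gut markers was higher. With libraries centred, betaTry (log2 change 7.96, adjusted p = 0.00051) and Mal-A1 (1.47, adjusted p = 0.0385) were higher. Muscle markers summed to 883 to 1060 FPKM in Shal495 and 915 to 938 in w1118, with 1 of 7 higher. Act88F passed with libraries centred (1.16, adjusted p = 0.0276). Fat body markers summed to 616 to 629 FPKM in Shal495 and 482 to 483 in w1118, and no tested one passed. Malpighian tubule markers (4 of 5 listed) summed to 27.8 to 34.3 FPKM in Shal495 and 39.2 to 45.2 in w1118. Neither of the 2 tested passed.

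In flies with elav-Gal4 and UAS-TrpA1, 9 of the 10 transcripts were lower than in the UAS-TrpA1 control, none was higher, and Ncc69 did not pass. Of all 8980 genes tested, 60.6% passed, 16.6% higher and 43.9% lower. The median gene was lower by 0.16, and the median relative change of the 10 was -0.42. With libraries centred, 8 were lower and none higher, beside 28.8% higher and 22.7% lower among all genes. Libraries of the 2 groups did not overlap for any of the 10, as held for 80.9% of all genes, 58.1% lower. No FPKM ratio reached 2-fold.

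Atpalpha had 170 and 172 FPKM in elav-Gal4 UAS-TrpA1, against 273 and 274 FPKM in the UAS-TrpA1 control. Replicates differed by far less than the groups, and the log2 change was -0.67 ± 0.03 (adjusted p = 9.01e-06), or -0.51 relative to the median gene.

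nrv2 had 114 and 115 FPKM in elav-Gal4 UAS-TrpA1, against 223 and 224 FPKM in the UAS-TrpA1 control. nrv3 had 165 and 154 FPKM in elav-Gal4 UAS-TrpA1, against 269 and 258 FPKM in the UAS-TrpA1 control. nrv2 had the largest decrease of the 10, with a log2 change of -0.96 ± 0.03 (adjusted p = 2.52e-06), and nrv3 fell with Atpalpha (-0.72 ± 0.05, adjusted p = 3.46e-05). Relative to the median gene they were at -0.80 and -0.56.

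nrv1 had 158 FPKM in both elav-Gal4 UAS-TrpA1 libraries, against 166 and 173 FPKM in the UAS-TrpA1 control. On the deposited scale it was lower (log2 change -0.10 ± 0.04, adjusted p = 0.0481), but relative to the median gene it was 0.06 higher. It did not pass with libraries centred on their median gene (0.09, adjusted p = 0.077), nor without any 1 of the 4 libraries: adjusted p was 0.111 and 0.099 without the first or second elav-Gal4 UAS-TrpA1 library, and 0.0556 and 0.247 without the first or second control library.

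nrv1 supplied 36.1% and 37.1% of beta subunit FPKM in elav-Gal4 UAS-TrpA1, against 25.2% and 26.4% in the UAS-TrpA1 control, while nrv2 supplied 26.0% and 26.9% in elav-Gal4 UAS-TrpA1, against 33.9% and 34.2% in the control. Beta FPKM per Atpalpha FPKM was 2.57 and 2.47 in elav-Gal4 UAS-TrpA1, against 2.41 and 2.39 in the UAS-TrpA1 control. Both elav-Gal4 UAS-TrpA1 libraries thus had a larger nrv1 share and a smaller nrv2 share than both control libraries.

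kcc had 28.2 and 28.0 FPKM in elav-Gal4 UAS-TrpA1, against 52.2 and 51.0 FPKM in the UAS-TrpA1 control. Ncc69 had 15.8 FPKM in both elav-Gal4 UAS-TrpA1 libraries, against 17.1 and 17.9 FPKM in the UAS-TrpA1 control. kcc was lower, with a log2 change of -0.85 ± 0.04 (adjusted p = 1.11e-05), or -0.69 relative to the median gene. Ncc69 was at -0.14 ± 0.05 as deposited (adjusted p = 0.058), 0.02 relative to the median gene, and 0.05 with libraries centred (adjusted p = 0.473), although limma-voom on the recovered fragments called it lower on its own scale (adjusted p = 0.00901). kcc per Ncc69 was 1.78 in both elav-Gal4 UAS-TrpA1 libraries, against 3.05 and 2.85 in the UAS-TrpA1 control.

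**Figure D4:**
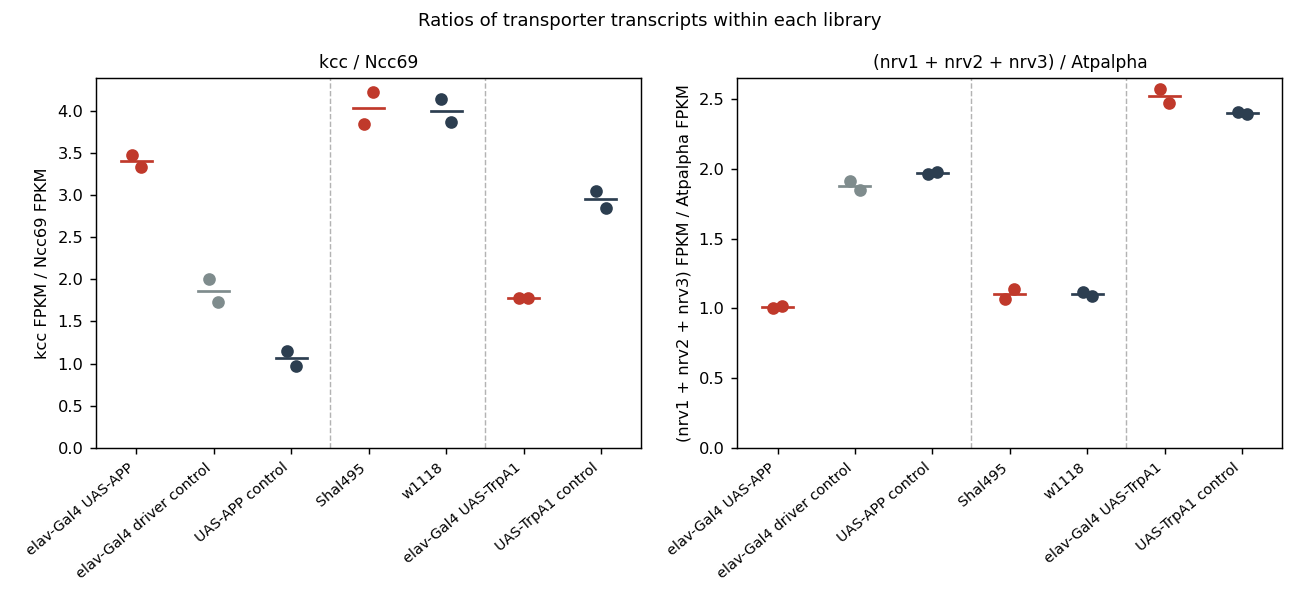
FPKM of kcc per FPKM of Ncc69 (left) and summed FPKM of nrv1, nrv2 and nrv3 per FPKM of Atpalpha (right), a point per library and a line at the group mean, with dashed lines between tables. kcc per Ncc69 is 3.33 to 3.47 in elav-Gal4 UAS-APP, above both of its controls, and 1.78 in elav-Gal4 UAS-TrpA1, below its control.

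ClC-a had 16.4 and 17.6 FPKM in elav-Gal4 UAS-TrpA1, against 24.8 and 23.9 FPKM in the UAS-TrpA1 control. ClC-c had 17.5 and 18.3 FPKM in elav-Gal4 UAS-TrpA1, against 23.8 and 25.3 FPKM in the UAS-TrpA1 control. Both were lower, with log2 changes of -0.49 ± 0.06 for ClC-a (adjusted p = 0.000438) and -0.44 ± 0.06 for ClC-c (adjusted p = 0.00078), or -0.33 and -0.27 relative to the median gene.

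Nckx30C had 8.26 and 7.86 FPKM in elav-Gal4 UAS-TrpA1, against 11.7 and 11.9 FPKM in the UAS-TrpA1 control. Calx had 10.1 and 9.92 FPKM in elav-Gal4 UAS-TrpA1, against 19.7 and 19.2 FPKM in the UAS-TrpA1 control. Here Calx had the larger change of the exchangers, -0.89 ± 0.05 on the log2 scale (adjusted p = 2.71e-05), beside -0.50 ± 0.06 for Nckx30C (adjusted p = 0.000669). Relative to the median gene they were at -0.73 and -0.34. The difference between those 2 changes was not tested.

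Of 23 tested genes of the wider lists, 13 were lower and 2 higher in elav-Gal4 UAS-TrpA1, beside 43.9% lower and 16.6% higher among all genes. With libraries centred 9 were lower and 3 higher, beside 22.7% and 28.8%. SERCA averaged 98.9 ± 2.2 FPKM in elav-Gal4 UAS-TrpA1 and 228 ± 0.76 FPKM in the UAS-TrpA1 control (SD, n = 2 each, adjusted p = 1.44e-06), and was the one gene of these lists to pass with a fold minimum of 2. PMCA averaged 29.7 ± 0.29 FPKM in elav-Gal4 UAS-TrpA1 and 56.5 ± 0.40 FPKM in the control (adjusted p = 7.85e-06). SPoCk, at 27.8 ± 0.66 FPKM in elav-Gal4 UAS-TrpA1 and 26.7 ± 0.04 FPKM in the control, did not pass (adjusted p = 0.333). With libraries centred, SPoCk was higher (0.24, adjusted p = 0.00597), while SERCA (-1.01, adjusted p = 2.24e-06) and PMCA (-0.71, adjusted p = 2.21e-05) stayed lower.

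Both other exchangers were lower, zyd with a log2 change of -0.56 ± 0.05 (adjusted p = 0.000219) and CG1090 with -0.47 ± 0.06 (adjusted p = 0.000539), or -0.40 and -0.31 relative to the median gene. Ndae1 was 9.42 ± 0.11 FPKM in elav-Gal4 UAS-TrpA1 and 16.4 ± 0.06 FPKM in the control (adjusted p = 6.67e-05). Nhe1 (-0.47 ± 0.06, adjusted p = 0.000927) and Nhe2 (-0.41 ± 0.09, adjusted p = 0.00666) were also lower. With libraries centred, Nhe1 passed (-0.29, adjusted p = 0.00918) but Nhe2 did not (-0.22, adjusted p = 0.0699). The bestrophins Best2 (-0.69 ± 0.05, adjusted p = 6.30e-05) and Best1 (-0.50 ± 0.07, adjusted p = 0.00157) were lower, or -0.53 and -0.34 relative to the median gene, and fray was at -0.47 ± 0.07 (adjusted p = 0.00154), or -0.31 relative. Mo25 was at -0.14 ± 0.05 (adjusted p = 0.0346), 0.02 relative, and did not pass with libraries centred (0.04, adjusted p = 0.438). The 2 higher genes were ClC-b (0.22 ± 0.06, adjusted p = 0.015) and CG10413, of the cotransporter family (0.20 ± 0.06, adjusted p = 0.0236), or 0.39 and 0.36 relative.

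Muscle markers also differed between these groups: all 7 were lower, beside 43.9% of all genes. They summed to 835 to 837 FPKM in elav-Gal4 UAS-TrpA1 and 1794 to 1816 FPKM in the UAS-TrpA1 control. Their median relative log2 change was -0.55, and with libraries centred bt and sls did not pass (adjusted p = 0.213 and 0.344). Glia markers summed to 968 to 969 FPKM in elav-Gal4 UAS-TrpA1 and 1348 to 1365 FPKM in the control, with 6 of 7 lower. Their median relative log2 change was -0.10, and with libraries centred only Gs2, alrm and Gat were lower (adjusted p = 0.000116, 0.0459 and 4.8e-05). Neuron markers summed to 259 to 264 FPKM in elav-Gal4 UAS-TrpA1 and 275 to 276 FPKM in the control, with 3 of 8 lower and a median relative log2 change of -0.01. With libraries centred, elav, nSyb and Rbp9 were higher (adjusted p = 0.0318, 0.00467 and 0.0187) and ChAT was lower (adjusted p = 0.00148). The other neuron markers then did not pass. Photoreceptor markers summed to 34147 to 34819 FPKM in elav-Gal4 UAS-TrpA1 and 22434 to 22486 FPKM in the control, with 6 of 8 higher and 2 lower. Fat body markers summed to 843 to 864 FPKM in elav-Gal4 UAS-TrpA1 and 694 to 695 FPKM in the control, with 5 of 6 higher, 1 lower and a median relative log2 change of 0.54. Gut markers summed to 5185 to 5340 FPKM in elav-Gal4 UAS-TrpA1 and 5232 to 5331 FPKM in the control, but single genes moved both ways, 3 higher and 4 lower. Mal-A1 (2.81-fold), Amy-p (2.19-fold) and Mal-A8 (2.1-fold) were higher in elav-Gal4 UAS-TrpA1, while betaTry had an FPKM ratio of 0.604 and yip7 of 0.666. None of these markers was at 0. Malpighian tubule markers (4 of 5 listed) summed to 29.7 to 30.9 FPKM in elav-Gal4 UAS-TrpA1 and 29.4 to 30.9 FPKM in the control. Drip, the 1 tested, did not pass but was higher with libraries centred (0.20, adjusted p = 0.0237). The part of all these markers in the transporter results was not tested.

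**Figure D5:**
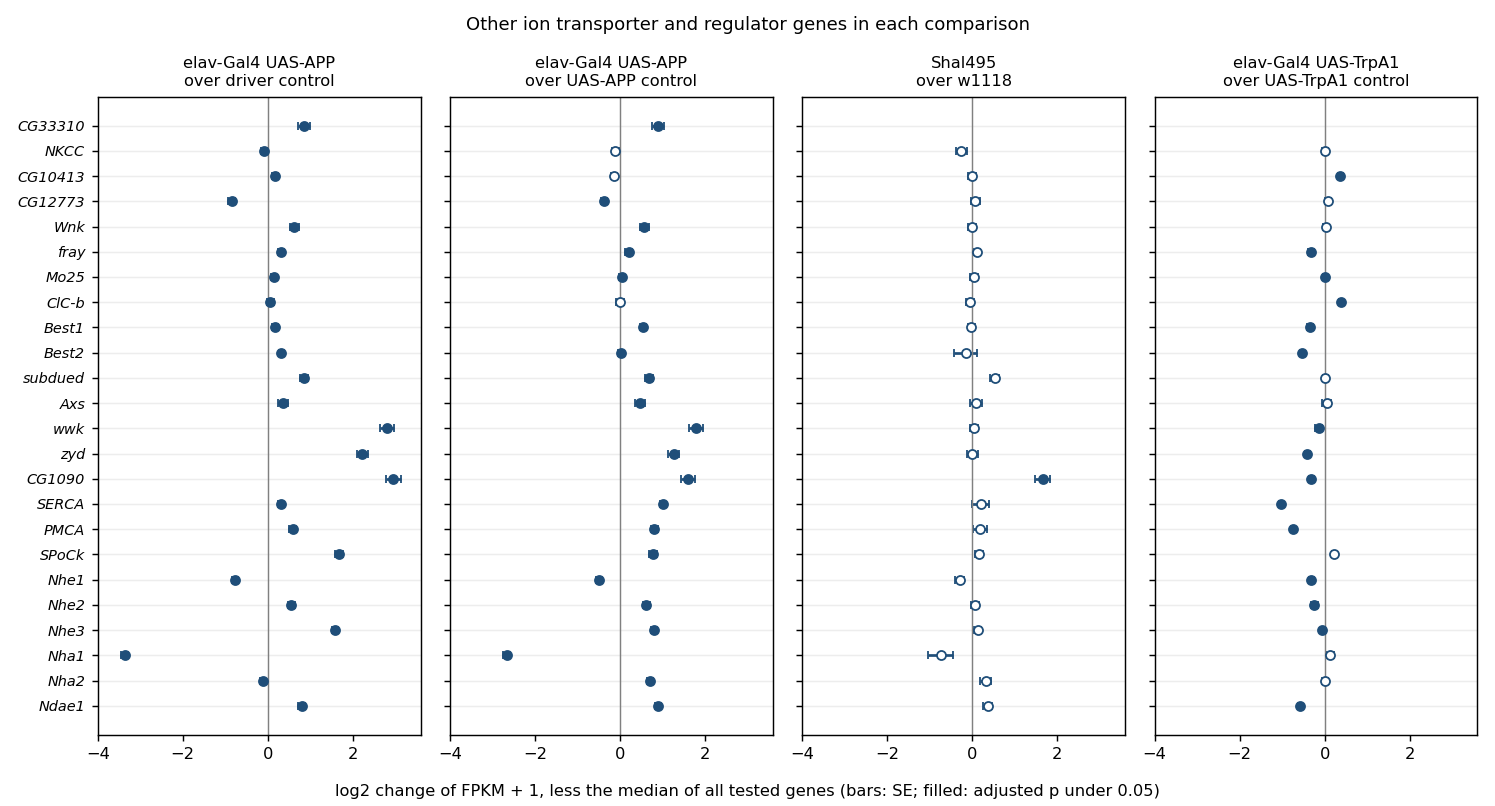
Log2 change of the 24 tested genes of the wider transport lists, less the median of all tested genes, with SE bars and filled points for an adjusted p under 0.05 on the deposited scale. CG1090, zyd and wwk lie far to the right and Nha1 far to the left in both APP comparisons, CG1090 is the filled point of Shal495 over w1118, and SERCA lies farthest left in the TrpA1 comparison.

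Levels are read across the tables as levels only, since the tables were deposited separately. Atpalpha was the most abundant of the 10 in elav-Gal4 UAS-APP, Shal495, w1118 and both TrpA1 groups. It was followed by nrv3, which overlapped with nrv1 in elav-Gal4 UAS-TrpA1. In the driver control nrv1 led (233 ± 3.72 FPKM), ahead of Atpalpha (173 ± 0.52 FPKM), and in the UAS-APP control nrv1 (266 ± 12 FPKM) and Atpalpha (256 ± 28.9 FPKM) overlapped. Nckx30C was the lowest of the 10 in the driver control, the UAS-APP control, w1118 and both TrpA1 groups. In elav-Gal4 UAS-APP it ranked above Calx, ClC-a, Ncc69 and ClC-c, and no library of it overlapped with those of Calx. ClC-a and Ncc69 overlapped in elav-Gal4 UAS-APP, and Nckx30C, ClC-c and Calx overlapped in turn in Shal495.

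Over the 14 libraries, with each gene's log2(FPKM + 1) centred within each table, Atpalpha lay closest among the 10 to nrv2 (root mean square difference 0.124) and to kcc (0.128). nrv1 and Nckx30C lay farthest apart (1.18). Among 5911 genes with a mean of at least 5 FPKM in every table, the nearest to Atpalpha was prd1 (0.052), to nrv3 Actbeta (0.040), to Nckx30C Syt1 (0.078), then qvr (0.081) and Appl (0.085), and to kcc pan (0.083). The nearest to nrv1 were ZnT86D (0.060) and Cat (0.061), to nrv2 CG4615 (0.087), to Ncc69 BORCS5 (0.074), to ClC-a Rcd1 (0.059), to ClC-c scny (0.059) and to Calx rgn (0.102). These distances describe patterns over libraries that share groups and cell make-up.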

How the data were processed

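The authors deposited 3 tables of FPKM per gene and library, which are normalized for depth and exon length. Per the submitters' processing notes BDGP6, Bowtie2 2.2.3, HISAT2 2.1.0 and TopHat2 were used, in roles not given there, and the sources used here do not name the tool that computed FPKM. FPKM times exon length gave whole fragments, within 0.02, for 98.7% to 98.9% of genes per library, and a floor of 3 counts at 1 kb came to 0.151 to 0.175 FPKM. Within each table, log2(FPKM + 1) of genes with at least 1 FPKM in at least 2 libraries was fitted with limma 3.58.1 (R 4.3.3, trended empirical Bayes, two-sided, no replicate block). The 3 APP groups shared 1 fit, and p-values were adjusted by Benjamini-Hochberg over all genes tested. Scripts were tested on simulated data. The 10 genes, the 6 transport lists (35 of 36 symbols matched) and the 7 marker lists were chosen with earlier results of these data known. All 10 genes are described, and each transport list is described by the genes that passed among its 3 smallest adjusted p per comparison and those that passed against most of their list, with a few that did not pass. Alternatives were 0.1 as pseudocount, other filters, median centring, quantile normalization, a replicate block, a fold minimum, limma-voom on recovered fragments and each library left out.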

Additional observations from a re-analysis of the deposited data

How the results depend on the processing

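Of 640 alternative values of the log2 changes of the 10 genes, 602 kept their direction and their side of the threshold, 15 lost the call, 5 gained one and 18 changed sign. With a fold minimum of 2, the wider lists gave 11 calls over the driver control, 7 over the UAS-APP control, 5 between the controls and 1 in the TrpA1 comparison, and the 10 genes gave 3 between the controls and 0 in the TrpA1 comparison, by construction of that setting. The wider lists gave 0 calls in Shal495 with no filter on low values, and 0 to 1 with a library left out. Between the controls, median centring gave 0.12 for nrv1, 0.02 for kcc, 0.23 for ClC-c and 0.17 for Calx, and quantile normalization gave 0.05 for ClC-c and for Calx. In the TrpA1 comparison, median centring gave 0.09 for nrv1 and 0.05 for Ncc69, and quantile normalization gave 0.04 for Ncc69. In Shal495, kcc was at -0.0042 with quantile normalization. With a library left out, the Shal495 changes ran from -0.03 to 0.08 for Atpalpha, -0.0045 to 0.49 for nrv2, -0.03 to 0.16 for nrv3, -0.05 to 0.08 for kcc, -0.08 to 0.09 for Ncc69 and -0.09 to 0.11 for Nckx30C. The cause of these sign changes was not tested. The labels number the libraries of each group, but same-numbered libraries did not deviate together (correlations -0.033 to 0.018), so the numbers pair nothing. With the replicate block, 10 of the 10 genes passed over each APP control, 7 between the controls, 0 in Shal495 and 9 in the TrpA1 comparison, the counts without it. Each value of the 10 genes rests on at least 652 fragments, and 2 libraries a group limit every test.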
